A study of Mus musculus with 20 samples.

Results

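The 10 genes described here encode chaperones and disulfide isomerases of the endoplasmic reticulum (ER) and the transcription factors of its stress response. They are Canx, Calr, Hspa5, Hsp90b1, Pdia3, Pdia4, Pdia6, Xbp1, Atf4 and Ddit3. All 10 were taken by gene symbol from a table of 39179 Ensembl genes, and each symbol matched 1 row. The table holds RNA sequencing values of 20 single podocytes, which are epithelial cells lying on the outside of the glomerular capillaries, from 1 wild type male C57BL/6 mouse (the sample labels spell the strain C56BL/6) aged 8 weeks. Beads were used to concentrate the glomeruli, enzymes released their cells, and single cells were captured and lysed in the wells of a Fluidigm C1 instrument. All cells form 1 group with no treatment. The comparisons are therefore between genes and between cells of this animal, no p-value is given, and each SD is a spread between cells.

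The ER folds secreted and membrane proteins. Calnexin and calreticulin bind the sugars of new glycoproteins, the HSP70 and HSP90 proteins of the ER hold unfolded chains, and protein disulfide isomerases make and exchange disulfide bonds. When unfolded proteins accumulate, the sensors IRE1, ATF6 and PERK act through the transcription factors XBP1, cleaved ATF6 and ATF4, and ATF4 can induce Ddit3, which encodes CHOP. Podocytes make slit diaphragm and basement membrane glycoproteins, and ER stress has been described in podocyte disease. XBP1 and ATF4 are controlled largely by splicing and by translation, respectively, which a level per gene does not show.

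A binding element shared by ER chaperone genes stood in the promoters of 5 of the 10 genes. The ER stress response element, bound by ATF6 with NF-Y, consists of the letters CCAAT and CCACG with 9 bases between them. It was searched on both strands in RefSeq windows (GRCm38.p6) from 250 bases before to 50 bases after each gene start, and all 10 genes had 1 window. The element was present in 0.119% of the 32851 windows of all genes. It was found in Canx, Calr, Hspa5, Pdia6 and, at 2 places that do not overlap, Hsp90b1. The matches are shown on the gene's own strand, with the outer parts of the element in capitals. In Calr and in the second Hsp90b1 match the element runs on the opposite strand, so that it reads CGTGG and then ATTGG. The Hspa5 match is shown with shorter flanks because an annotated exon covers it.
Canx: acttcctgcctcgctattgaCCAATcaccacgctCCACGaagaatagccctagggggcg
Calr: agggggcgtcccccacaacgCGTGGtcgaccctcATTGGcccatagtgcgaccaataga
Hspa5: cttcaCCAATcggaggcctCCACGacggg
Hsp90b1 first: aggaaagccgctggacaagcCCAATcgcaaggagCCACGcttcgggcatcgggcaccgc
Hsp90b1 second: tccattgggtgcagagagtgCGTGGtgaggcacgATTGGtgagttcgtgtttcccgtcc
Pdia6: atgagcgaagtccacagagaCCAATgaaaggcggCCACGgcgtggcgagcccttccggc
These stretches lie at chr11:50325780-50325838 (minus strand), chr8:84847055-84847113 (minus), chr2:34772020-34772048 (plus), chr10:86705618-86705676 and chr10:86705513-86705571 (both minus) and chr12:17266471-17266529 (plus). Between the element and the RefSeq gene start lay 46 bases in Hspa5, 79 in Pdia6, 126 in Canx, 143 in Calr, and 193 and 88 in Hsp90b1. The gene positions given below are from the GENCODE M21 annotation, whose starts differ in part. In that annotation Hspa5 begins at 34771970, before its element. The windows of Pdia3, Pdia4, Xbp1, Atf4 and Ddit3 held no match. The related elements ATTGG and CCACG with 1 base between them and TGACGTGG, and the amino acid response letters TGATGNAAN, occurred in none of the 10 windows, against 0.0365%, 0.676% and 3.95% of all windows. A match describes these letters only, and no binding was measured.

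Levels are RPKM values, which divide the reads of a gene by its length in kilobases and by the library's reads in units of 1000000. A gene counts as found where it reaches 1 RPKM. The libraries held 4205562 to 10448491 reads assigned to genes, and 2371 to 4977 genes were found per cell. In a gene of 2000 bases, a library with no read could still hold up to 0.144 to 0.357 RPKM, the value of 3 reads, which covers counting error only. Podocyte markers were found throughout, with 14 to 16 of 16 per cell. Cells 5, 6, 10, 11 and 14 also held 7 to 11 of 14 mesangial and mural markers, with a summed level of 2139 to 5568 RPKM against at most 84.7 RPKM in the other 15 cells. Cell 8 held 10 of 14 endothelial markers, with a summed level of 2953 RPKM against at most 587 RPKM in any other cell. No cell reached 1 RPKM of the mesangial and mural markers Acta2, Tagln and Ren1 or of the endothelial markers Egfl7 and Erg. These 6 cells held 3425 to 4977 genes each, against 2371 to 4082 in the other 14. The other 14 were not free of endothelial markers, with up to 2 per cell and summed levels up to 329 RPKM (cell 12). Parietal epithelial markers reached at most 2 of 7 per cell, with summed levels up to 402 RPKM (cell 2). Of 8 immune markers only Fcer1g was found, in 1 cell, at 495 RPKM in cell 5. The part of these markers and of the gene number in the results below was not tested, and values with and without these 6 cells are given for the counts of cells with a stress factor and for the pair correlations named.

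Chaperone and isomerase genes were found in nearly every podocyte, while the stress transcription factors were found in fewer than 10 of them. Canx, Calr, Hsp90b1 and Pdia3 were found in all 20 cells, Pdia6 in 19, and Hspa5 and Pdia4 in 18. Of all genes of the table, 0.664% were found in every cell. Among the 467 genes with a median of at least 100 RPKM, a level that all of these but Pdia4 reach, the share was 39.6%, and 73.4% were found in at least 18 cells. Without the 6 cells with mesangial or endothelial markers, the same count of 4 genes was found in all of the remaining 14.

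**Figure D1:**
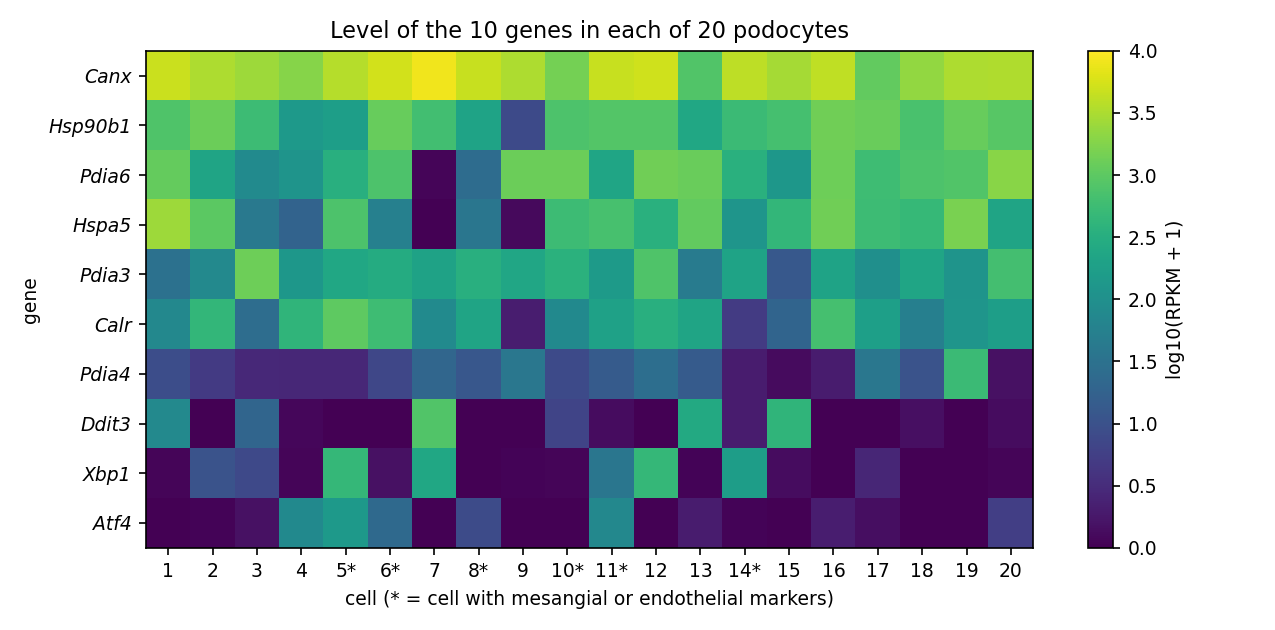
Level of each gene (rows, ordered by median) in each of the 20 cells (columns), as log10(RPKM + 1). Canx is high in every column, Hspa5 and Pdia6 are dark in cell 7, and Hspa5, Hsp90b1 and Calr in cell 9. The bottom 3 rows, Ddit3, Xbp1 and Atf4, reach 1 RPKM in 6, 8 and 7 cells. Values near 1 RPKM, such as 1.13 RPKM of Atf4 in cell 16, stay dark on this scale.

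Canx, which encodes the membrane-bound lectin chaperone calnexin (chromosome 11, 50293961 to 50325673, build GRCm38), was the highest of the 10 genes. It ranged from 832 RPKM in cell 13 through a median of 3291 RPKM to 8077 RPKM in cell 7, with a mean of 3510 ± 1685 RPKM (SD, n = 20 cells). No library had fewer than 14999 Canx reads. Its median was the 14th highest of all genes. Canx lay above each of the other 9 genes in at least 19 of 20 cells and was the highest of the 10 in 18. The exceptions were cell 13, in which Pdia6 (1207 RPKM) and Hspa5 (1091 RPKM) were higher, and cell 17, in which Hsp90b1 (1198 RPKM) was higher than Canx (1078 RPKM). Of the summed RPKM of the 7 chaperone and isomerase genes, Canx made up 22.8% in cell 13 and 89.8% in cell 7, with a median of 57.2%.

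Calr encodes calreticulin, the soluble lectin chaperone of the ER lumen that is related to calnexin (chromosome 8, 84841850 to 84846934). It ranged from 1.11 RPKM in cell 9 through a median of 176 RPKM to 1009 RPKM in cell 5, with a mean of 242 ± 261 RPKM (SD, n = 20 cells). Canx was higher in 20 of 20 cells. Calr was low in cells 9 and 14, at 12 and 29 reads, and stood at 18.2 RPKM or more in every other cell. The highest level was 910 times the lowest for Calr and 9.71 times the lowest for Canx. Over the 20 cells the Spearman correlation of these lectin genes was 0.23, and it was 0.06 without the 6 cells with other markers.

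Hspa5 encodes BiP, the HSP70 chaperone of the ER that also restrains the stress sensors (chromosome 2, 34771970 to 34777547). It ranged from 0 in cell 7 through a median of 458 RPKM to 2601 RPKM in cell 1, with a mean of 595 ± 665 RPKM (SD, n = 20 cells). Cell 7 had no Hspa5 read and cell 9 had 3, whereas cells 13, 16 and 19 had 12247, 15095 and 13988. Another 4 cells (3, 4, 6 and 8) lay between 18.1 and 54.3 RPKM, apart from the remaining 14 cells at 122 RPKM or more. Among the 6 cells with mesangial or endothelial markers Hspa5 ran from 36.8 to 753 RPKM, within the range of the other 14.

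Hsp90b1 encodes GRP94, the HSP90 protein of the ER, which folds integrins and other receptors (chromosome 10, 86690209 to 86705509). It ranged from 6.79 RPKM in cell 9 through a median of 738 RPKM to 1374 RPKM in cell 16, with a mean of 710 ± 408 RPKM (SD, n = 20 cells). Cell 9, with 101 reads, stood apart, since the next lowest cell, cell 4, had 147 RPKM. Its exons share 415 bases with a transcribed pseudogene on the opposite strand, which did not reach 1 RPKM anywhere.

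The 3 disulfide isomerase genes differed widely in level. Pdia6, whose product P5 acts with BiP (chromosome 12, 17266545 to 17284770), ranged from 0.127 RPKM (1 read) in cell 7 through a median of 664 RPKM to 1921 RPKM in cell 20, with a mean of 691 ± 567 RPKM (SD, n = 20 cells). Pdia3, whose product ERp57 works with calnexin and calreticulin (chromosome 2, 121413775 to 121438687), ranged from 11.5 RPKM in cell 15 through a median of 208 RPKM to 1287 RPKM in cell 3, with a mean of 284 ± 305 RPKM (SD, n = 20 cells). Pdia4, whose product is ERp72 (chromosome 6, 47796141 to 47813430), was low, from 0.288 RPKM (3 reads) in cell 15 through a median of 7.32 RPKM to 539 RPKM in cell 19. Outside cell 19, Pdia4 did not exceed 38.2 RPKM, so that its mean of 37.1 ± 119 RPKM (SD, n = 20 cells) rests on that cell. Pdia3 had at least 56 reads in each library.

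Xbp1, Atf4 and Ddit3 were absent or near 0 in most cells and high in a few. Xbp1, a factor that induces genes of folding and degradation (chromosome 11, 5520659 to 5525893), was found in 8 cells. It stood at 464 RPKM in cell 12, 454 in cell 5, 244 in cell 7, 165 in cell 14, 35.5 in cell 11, 9.46 in cell 2, 6.73 in cell 3 and 1.72 in cell 17. The other 12 cells had 0 to 4 Xbp1 reads. Xbp1 was found in 3 of the 6 cells with mesangial or endothelial markers and in 5 of the other 14. The values behind a gene do not tell the spliced from the unspliced form.

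Atf4, the main effector of the integrated stress response (chromosome 15, 80255184 to 80257541), was found in 7 cells. Its levels there were 145 RPKM in cell 5, 78.3 in cell 4, 73.04 in cell 11, 22.4 in cell 6, 7.15 in cell 8, 4.56 in cell 20 and 1.13 in cell 16. Of these cells 5, 6, 8 and 11 are among the 6 with mesangial or endothelial markers, so that Atf4 was found in 4 of those 6 and in 3 of the other 14. Across the 20 cells Atf4 had a Spearman correlation of 0.44 with the number of genes found, which is itself high in those 6. Atf4 had no read in 8 cells.

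Ddit3, the gene of the factor CHOP that is linked to cell death under lasting stress (chromosome 10, 127290774 to 127296288), was found in 6 cells. It stood at 830 RPKM in cell 7, 420 in cell 15, 266 in cell 13, 74.6 in cell 1, 19.2 in cell 3 and 5.62 in cell 10. Cell 7 held 4609 Ddit3 reads, and 9 cells held none. Ddit3 was found in 1 of the 6 cells with other markers and in 5 of the other 14. Its exons share 68 bases with Mars on the opposite strand, which was found in cell 3, at 132 RPKM, and in cell 6, at 1.05 RPKM, but in no other. Cell 3 is also counted among the Ddit3 cells, with 108 reads. The strandedness is not given, and whether any of these 108 reads came from Mars was not tested.

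Of the 20 cells, 40% held Xbp1, 35% Atf4 and 30% Ddit3, and overlaps of 0 to 2 cells are too small to be read as differing from these shares. Xbp1 and Atf4 were found together in cells 5 and 11, which are 25% of the Xbp1 cells and 28.6% of the Atf4 cells. Cells 5 and 11 are both among the cells with mesangial or endothelial markers. Xbp1 and Ddit3 were found together in cells 3 and 7, which are 25% of the Xbp1 cells and 33.3% of the Ddit3 cells. Cells 3 and 7 are not among those with mesangial or endothelial markers. No cell held Atf4 and Ddit3 together at 1 RPKM. Cells 9, 18 and 19 held none of the 3 factors, 13 cells held 1, and 4 cells held 2. Patchy detection of this kind was common in these libraries: of 11749 genes that reached 1 RPKM anywhere, 23.8% did so in 5 to 9 cells. Where found, the median level of such genes was 21.1 RPKM. That of Atf4 was 22.4 RPKM, of Xbp1 100 RPKM and of Ddit3 170 RPKM, the last above 95.2% of these 2797 genes.

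**Figure D2:**
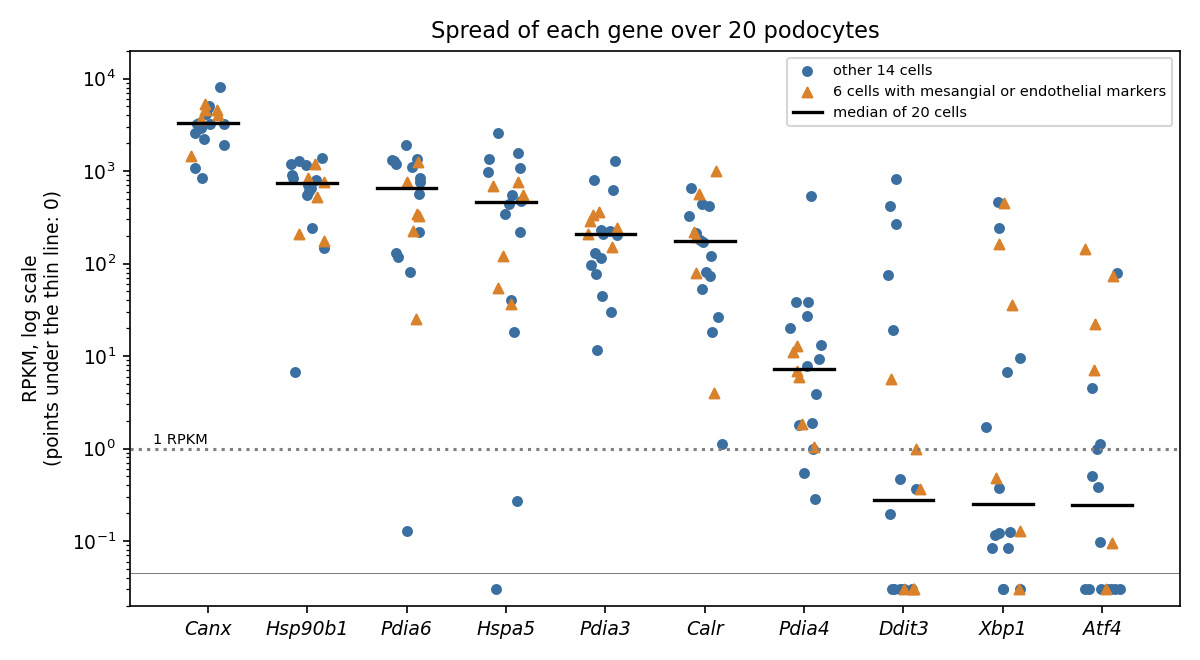
RPKM of each gene in each of the 20 cells on a log scale, with genes ordered by median; points under the thin line are 0 and triangles mark the 6 cells with mesangial or endothelial markers. The triangles lie within the range of the other cells, except for the highest Calr and Atf4 values, which are in cell 5.

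Ordered by median, the genes ran from Canx through Hsp90b1, Pdia6, Hspa5, Pdia3, Calr and Pdia4 to Ddit3, Xbp1 and Atf4. Only some of these neighbours were apart in most cells. Canx lay above Hsp90b1 in 19 of 20 cells, Calr above Pdia4 in 18 and Pdia4 above Ddit3 in 15. Hsp90b1 lay above Pdia6 in 12 cells, Pdia6 above Hspa5 in 12 and Hspa5 above Pdia3 in 11, so that these neighbours did not differ beyond their spread. Pdia3 and Calr did not differ either, since Pdia3 was the higher in 9 cells and Calr in 11. Ddit3 was above Xbp1 in 9 cells and below in 8, and Xbp1 above Atf4 in 11 and below in 7. With the longest annotated transcript as gene length, the Canx median would be 1476 RPKM in place of 3291, still the highest, those of Hspa5 and Pdia3 149 and 87.0 RPKM, and Calr would stand above Pdia3 and Atf4 above Xbp1.

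Low values of the abundant members fell in 3 cells. Calr, Hspa5, Hsp90b1, Pdia3 and Pdia6 have medians of 100 to 1000 RPKM, and 6 of their 100 values, or 6.00%, lay below 10 RPKM. Over all 420 genes with such medians the share was 13.6%. Cell 9 held 3 of the 6 low values (Calr, Hspa5 and Hsp90b1), although 15.5% of the 420 genes were below 10 RPKM there, and it had 3236 RPKM of Canx and 1270 RPKM of Pdia6. Cell 7 held 2 (Hspa5 and Pdia6), with 27.6% of the 420 genes low, and cell 14 held 1 (Calr), with 9.05%. In cell 12, which had the fewest genes and 36.4% of the 420 genes low, none of the 5 was low, and Calr, their lowest, stood at 329 RPKM. The number of the 10 genes found ran from 6 in cell 9 to 9 in cells 3, 5 and 11. Across the 20 cells it had a Spearman correlation of 0.54 with the number of genes found per cell and of 0.16 with the reads of the library.

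The 7 chaperone and isomerase genes showed little common rise and fall as a group. The median Spearman correlation of their 21 pairs over 20 cells was 0.07, against 0.02 for all pairs of 2269 genes (mean 10 RPKM or higher, detected in 10 cells or more). Of the 21 pairs 66.7% lay above 0, against 53.2% of all pairs. Hspa5 and Hsp90b1 had the highest value, 0.50, followed by Hspa5 with Pdia6 at 0.38, Hsp90b1 with Pdia6 at 0.35 and Calr with Hsp90b1 at 0.31. The genes of these 4 pairs all have the ER stress response element, as 5 of the 7 genes do. Whether the element bears on these values was not tested. The other 6 pairs of genes with the element were Calr with Hspa5 at 0.25, Canx with Calr at 0.23, Canx with Hsp90b1 at 0.19, Calr with Pdia6 at 0.03, Canx with Pdia6 at -0.04 and Canx with Hspa5 at -0.15. The highest pairs with a gene that lacks the element were Canx with Pdia3 at 0.21 and Pdia3 with Pdia6 at 0.20. Hspa5 and Pdia3 had the lowest value, -0.45. Of all pairs compared, 98.2% lay below the value of Hspa5 and Hsp90b1, and 2.19% below that of Hspa5 and Pdia3. Without the 6 cells with other markers, Hspa5 and Hsp90b1 stood at 0.60 and Hspa5 and Pdia3 at -0.54. In those 14 cells Canx with Pdia6 changed sign to 0.25, Calr with Pdia6 stood at 0.22, Calr with Hsp90b1 at 0.52, Canx with Hsp90b1 at 0.30 and Canx with Hspa5 at -0.07. Hspa5 with Pdia6 stood at 0.32, Hsp90b1 with Pdia6 at 0.30 and Calr with Hspa5 at 0.31. With the number of genes per cell removed, Hspa5 stood at 0.54 with Hsp90b1 and at -0.40 with Pdia3. By Pearson correlation of log2(RPKM + 1), Hspa5 stood at 0.59 with Hsp90b1, 0.57 with Pdia6 and -0.34 with Pdia3. Hsp90b1 with Pdia6 then stood at 0.04, Calr with Hsp90b1 at 0.45 and Canx with Pdia6 at -0.37, so that some values rest on the measure. All points share 1 animal and 1 preparation, and 20 cells leave each value imprecise.

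**Figure D3:**
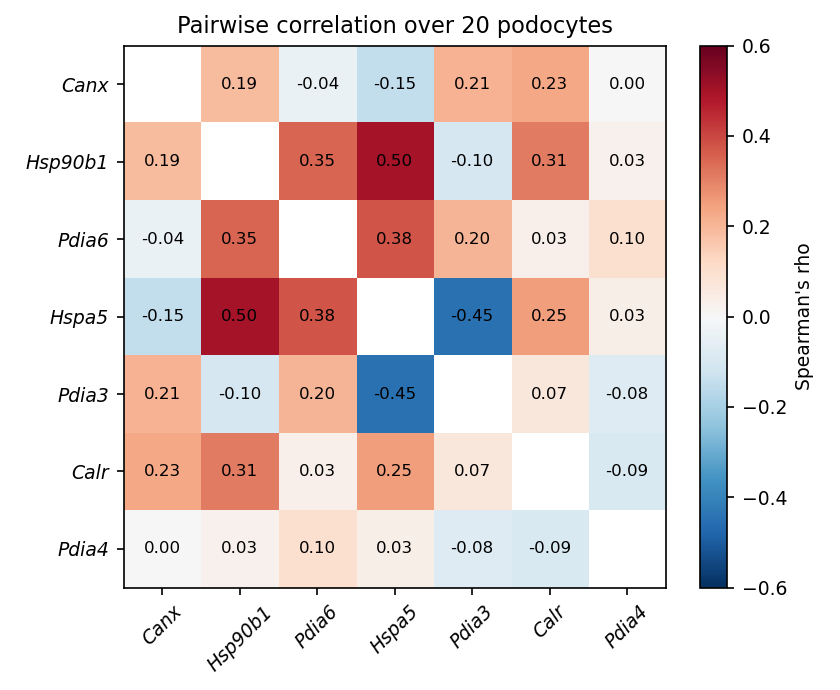
Spearman correlation over the 20 cells for each pair of the 7 genes found in at least 10 cells, with negative values in blue and positive values in red. The warm block joins Hsp90b1, Hspa5 and Pdia6 at 0.35 to 0.50, and the deepest blue is Hspa5 with Pdia3 at -0.45. By Pearson correlation of log2(RPKM + 1), not shown, Hsp90b1 with Pdia6 stood at 0.04.

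Among 2182 named genes, the 3 with the highest Spearman correlation over the 20 cells were taken as closest to each member. The closest to Canx were Rps10, a ribosomal protein gene, at 0.64, Capza2, an actin capping gene, and Unc13d, an exocytosis gene, both at 0.59. This best value was low, as only 2.47% of the 2269 genes had a lower one, and the median best value was 0.73. Hspa5 was closest to Rps9 at 0.78, Kmt2e at 0.71 and Nap1l4 at 0.69, and Hsp90b1 to Eif3c at 0.70, Vbp1 at 0.69 and Cyhr1 at 0.67. Calr was closest to Hspa12a and Rragc, both at 0.73, and Trappc2 at 0.66. Pdia3 was closest to Sugt1 and Slc39a1, both at 0.68, and Srpk1 at 0.66. Pdia4 was closest to Synpo, which encodes the podocyte actin-binding protein synaptopodin, at 0.73, Pcolce at 0.67 and Top2b at 0.66. For Pdia6 they were Golgb1, a giant protein of the Golgi, at 0.71, Ginm1 at 0.63 and Rrbp1, a ribosome receptor of the ER, at 0.60. For Canx, Hsp90b1, Pdia3 and Pdia6 the best value was among the lower 34.2% of genes. For Pdia4, Calr and Hspa5, 45.3%, 49.5% and 80.3% of genes had a lower best value. By Pearson correlation of log2(RPKM + 1), Canx with Rps10 and Hspa5 with Kmt2e both stood at 0.40. Hsp90b1 with Eif3c then stood at 0.37, while Canx with Unc13d stood at 0.75, so that the order rests in part on the measure.

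Cell-to-cell variation of the 10 genes, set against genes of like level, ran from low to high. The residual of the squared coefficient of variation from its trend on the mean, taken over 5470 genes whose mean reached 10 RPKM, was placed as a percentile among them. The lowest percentiles were 21.1 for Hsp90b1 and 23.3 for Atf4, and the highest were 83.2 for Ddit3, 82.3 for Hspa5 and 78.1 for Pdia4. Canx lay at 63.1, Xbp1 at 61.1, Pdia6 at 58.2, Pdia3 at 46.7 and Calr at 39.1. Measured by the log2(RPKM + 1) SD instead, Pdia4 lay at 2.79, Pdia3 at 9.19, Hsp90b1 at 67.8 and Pdia6 at 96.4. The former measure gives weight to single high cells such as cell 19 for Pdia4, and the latter to cells near 0 such as cell 7 for Pdia6.

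The other listed genes of the pathway were mostly found in fewer cells than the chaperones, but more widely than the table's genes in general. The list was chosen with earlier results of these data known, so the shares below do not test how widely the pathway is found. Of 138 listed genes, 4 were found in every cell (2.90%), namely Ssr3, Spcs1, Kdelr2 and Nupr1, 44 in 10 to 19 cells, 69 in 1 to 9 cells and 21 in no cell. Of all protein-coding genes 1.11% reached 1 RPKM in all 20 cells, and of the 11749 genes detected anywhere 2.21% did. No share over all genes was taken for the 69 in 1 to 9 cells. The 21 genes in no cell were 15.2% of the list, against 70% of all genes of the table and 53.6% of its 21303 protein-coding genes. The 44 in 10 to 19 cells were 31.9%, against 9.88% of protein-coding genes. Above 0 RPKM, the number of listed genes in every cell was 13. Of the 7 genes of the sensors, their processing proteases and the PERK substrate, none was found in every cell. Atf6, the sensor cleaved in the Golgi, had a median of 0.613 RPKM and reached 1 RPKM in 10 cells, and Eif2s1, the translation factor subunit that PERK phosphorylates, had 0.405 RPKM and reached 1 RPKM in 9. Ern1, which encodes the XBP1-splicing enzyme IRE1, was found in cell 17 alone, at 8.78 RPKM. Eif2ak3, which encodes PERK, reached 4.34 to 25.7 RPKM in cells 7, 12, 14 and 15; it was named after its values were seen.

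The partners of BiP were found in 1 to 15 cells. Of 14 co-chaperones and exchange factors none was found in every cell. Dnajc3, which encodes the co-chaperone p58IPK and holds the ER stress response element, had the highest median, 20.8 RPKM in 15 cells, followed by Sdf2 with 9.65 RPKM in 13. Dnajb9, a target of XBP1, was found in cell 19 alone, at 21.2 RPKM. Of 24 other oxidoreductases and proline isomerases, Selenof had a median of 434 RPKM in 19 cells and P4hb, the founding disulfide isomerase, 151 RPKM in 16. Pdia5, Fkbp10, Fkbp11 and Fkbp14 were found in no cell. Among 12 genes listed for the glycoprotein cycle, Calu had the highest median, 101 RPKM in 18 cells. Calu encodes a calcium-binding protein and not an enzyme or lectin of that cycle. Ganab, a glucosidase subunit that prepares glycans for calnexin, followed with 5.87 RPKM in 11. The medians of Uggt2, Uggt1, Prkcsh and Mogs were 0.688, 0.289, 0.102 and 0 RPKM. Clgn, the testis relative of Canx, had no read.

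Translocation genes were the most widely found of these roles, and degradation genes less so. Of 22 translocation and signal peptide genes, the signal peptidase gene Spcs1 and the translocon gene Ssr3 were found in every cell, with medians of 562 and 412 RPKM. Tram1 had 436 RPKM in 18 cells, and the least found was Sec61a2, in 3 cells. The median gene of this role was found in 14.5 cells, against 7.5 for the 20 genes of ER-associated degradation. Of the latter, Selenos had a median of 101 RPKM in 17 cells and Vcp, the ATPase that pulls proteins out of the ER, 37.0 RPKM in 19, while Derl3 had no read.

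Of 21 genes of the integrated stress response, 10 were found in no cell, or 47.6%, close to the 53.6% of all protein-coding genes. These include Atf3, Trib3, Chac1, Sesn2, Ddit4 and Fgf21, named after their values were seen, which had no read in any of the 20 libraries. Ppp1r15a, the phosphatase subunit that ends the response, was found in cell 8 alone, at 14.3 RPKM, and Psat1, a serine synthesis gene, in cell 17 alone, at 98.04 RPKM. Nupr1, a small stress-induced chromatin protein gene, was the exception, with 589 RPKM in cell 5, a median of 1324 RPKM and 3952 RPKM in cell 7, and it was found in every cell. Slc7a11, the cystine transporter gene, followed with a median of 1.04 RPKM in 10 cells. Whether a gene at 0 was not expressed or its transcripts were lost during capture cannot be told apart.

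**Figure D4:**
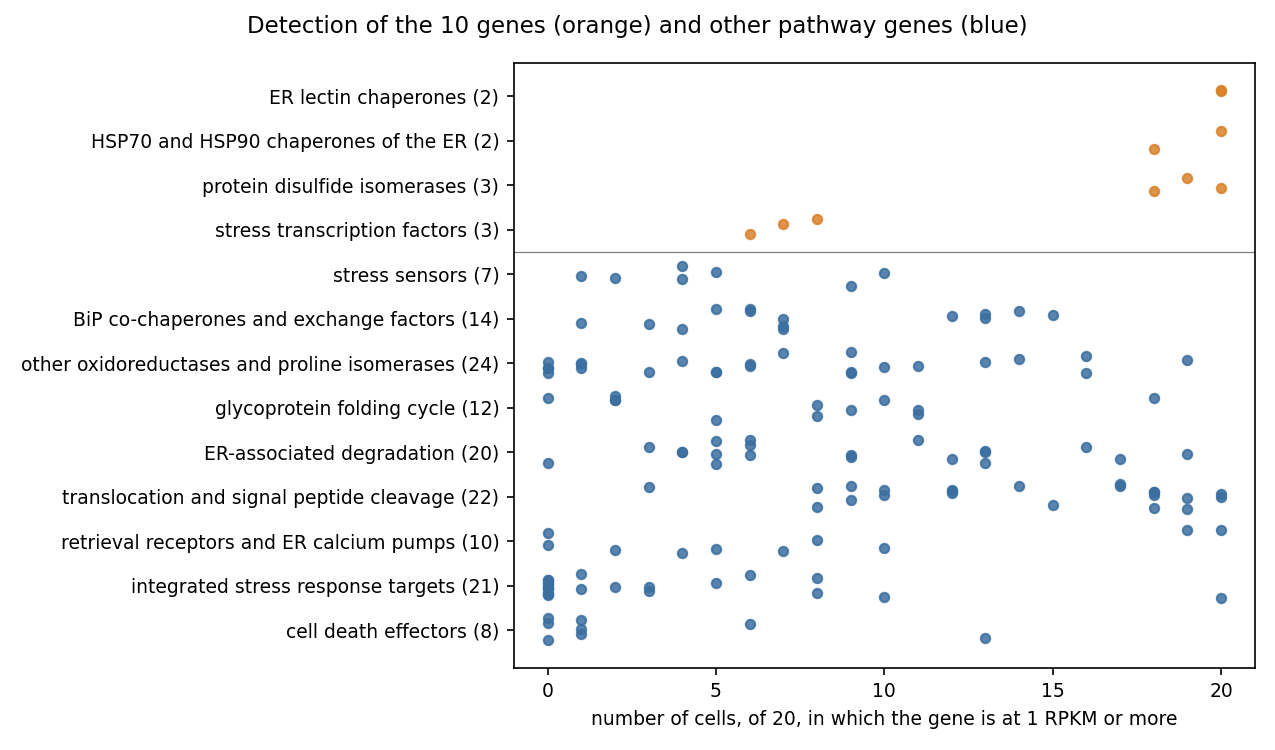
Number of cells, of 20, in which each gene was found at 1 RPKM or more, by role, with the 10 genes in orange above the line and 138 other pathway genes in blue; the number of genes of a role is in brackets. The chaperones and isomerases sit at 18 to 20 cells, the stress transcription factors at 6 to 8, and 10 integrated stress response genes at 0.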

How the data were processed

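RPKM values per gene and cell were made and deposited by the authors, 1 column per cell, per the file headers. TopHat2 2.0.12, HTSeq 0.6.1 and build GRCm38 are named per the submitters' processing notes; for settings and strandedness, the notes are silent (not given in the sources used here). Values were not rescaled, and 1 blank was set to 0. Cells are numbered 1 to 20 in sample order. Library totals were recovered from genes with 1 annotated transcript in GENCODE M21 (GRCm38), where 1 read gives a fixed value. Each member then had a whole-base length giving whole reads, within 0.001 read, in all cells. For 7 members this is the rounded mean transcript length; for Hspa5, Atf4 and Pdia4 it was 1195, 1724 and 2480 bases against means of 1418, 1468 and 1373, and for Pdia4 it exceeds the longest transcript of 2399. Genes were matched by symbol and Ensembl ID, with older symbols from RefSeq. A blastn 2.17.0 search found no stretch of at least 75 bases at 95% identity in transcripts of other genes for 9 of the 10 members; for Hsp90b1 it found overlapping transcripts only. Variation used a loess trend (span 0.3, statsmodels 0.14.6). The calculations were tested on simulated data. The members and lists were chosen with earlier results of these data known. The named genes were the 10 members and, of each listed role, the genes with the highest 2 medians, the least found, and up to 5 found in no cell, plus the 3 genes closest to each member. As alternatives, detection was set above 0 or at 5 RPKM, and others were rescaling, the longest transcript as length, leaving out cells, other correlations and other variation measures.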

Additional observations from a re-analysis of the deposited data

How the results depend on the processing

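Of 28 planned recalculations of the main summaries, 26 stayed within the spread between cells, genes or pairs, or within 1.5 times for counts. Rescaling each cell to a sum of 1000000 raised the median of the members' medians from 192 to 325 RPKM. The longest transcript as length lowered it to 90.8 RPKM, over 2-fold though within the spread between cells, and likewise lowered the Hspa5 median from 458 to 149 RPKM and that of Pdia3 from 208 to 87.0 RPKM. Detection above 0 RPKM raised the number of pathway genes found in every cell from 4 to 13. The number of members found in every cell was 6 above 0 RPKM, and 3 at 5 RPKM or with the longest transcript as length. Above 0 RPKM, Xbp1 was counted in 16 cells, Atf4 in 12 and Ddit3 in 11, the added cells having 1 to 16 reads, so that these counts rest on the threshold. The median pairwise correlation ranged from 0 with all 10 members to 0.09 with the number of genes per cell removed. No paired analysis was possible because all cells form 1 group. At this depth a gene at 0 in a library cannot be told from one below the value of 3 reads.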

Other observations

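Retrieval and calcium genes of the ER, and the genes of cell death, complete the listed pathway. Kdelr2, a receptor that returns BiP, GRP94 and calreticulin from the Golgi to the ER, was found in every cell, from 145 RPKM in cell 12 through a median of 371 RPKM to 1133 RPKM in cell 7. Cell 7 had no Hspa5 read and 1 Pdia6 read but was highest for Kdelr2, Canx, Ssr3, Spcs1 and Nupr1, which was picked out after the values were seen. Only 2492 genes were found in cell 7, against a median of 3306 over the cells. Of the 420 genes with medians of 100 to 1000 RPKM, 27.6% lay below 10 RPKM there. Kdelr3 had no read, and Atp2a3, a calcium pump gene, was found in no cell. Tmbim6, an ER membrane protein that restrains cell death, had a median of 282 RPKM in 19 cells, and the calcium channel gene Itpr2 was the least found of those detected, in 2. Of 8 cell death genes, Bbc3, Pmaip1 and Bak1 had no read, and Tnfrsf10b, a death receptor gene induced by CHOP, had a median of 3.44 RPKM and reached 1 RPKM in 13 cells.

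Beside the 5 members, 25 measured genes had a promoter window with the element. None of them was found in every cell, against 0.664% of all genes of the table. There were 17 found in no cell, among them Derl3, or 68%, close to the table's 70%, while Hnrnpa3 was found in 17 cells and Dnajc3 in 15. Hnrnpa3 was named after its values were seen.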
